A study of Mus musculus with 23 samples.

Results

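The genes described here encode the pore-forming α1 subunits of voltage-gated calcium channels: Cacna1a, Cacna1b, Cacna1c, Cacna1d, Cacna1e, Cacna1g, Cacna1h and Cacna1i. They were chosen by name and make up 8 of the 45706 gene IDs in the count table. All 8 were found in the table, and all 8 passed the filter on low counts. An α1 subunit forms the calcium-selective pore of the channel and carries its voltage sensors, so its identity sets the current type. The CaV2 genes encode the P/Q-type (Cacna1a), N-type (Cacna1b) and R-type (Cacna1e) channels, the first pair of which couple calcium entry to transmitter release at most central synapses. The CaV1 genes Cacna1c and Cacna1d encode the neuronal L-type channels, which in hippocampal neurons lie mainly on the soma and dendrites and signal to the nucleus, and the CaV3 genes Cacna1g, Cacna1h and Cacna1i encode the low-voltage-activated T-type channels, which support burst firing.

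The libraries were made from polyadenylated RNA of mouse hippocampus, with 23 libraries in 6 groups. In the labels, the populations named CamK and Grik are excitatory pyramidal cells and the population named SST is somatostatin-positive interneurons, and each has libraries that are wild type (WT) or conditional knockout (cKO) for SLM2, an RNA-binding regulator of alternative splicing encoded by Khdrbs3. There were 4 CamK WT, 3 CamK cKO, 4 Grik WT, 4 Grik cKO, 4 SST WT and 4 SST cKO libraries. The labels give neither the age, sex, strain or recombinase driver (1 column name reads Grik4), nor how the cells or their RNA were isolated, nor which exons were deleted. Nothing in the labels says that the libraries came from separate animals, so p-values measure only the spread between these samples, which may be technical. These are bulk samples, in which fewer cells of a type and less RNA per cell cannot be told apart.

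Gene totals ran from 87612006 to 112993538 reads per library, with a median of 91378465. Total Khdrbs3 levels in CPM (counts per 1000000 reads, scaled with TMM factors) were lower in the libraries labelled cKO than in WT for CamK (249 to 294 against 356 to 413) and SST (82.6 to 106 against 123 to 140). In Grik they were higher in the libraries labelled cKO, at 396 to 439 against 327 to 347, which goes against that label as far as whole-gene counts can show it. The 3 GABA neuron markers (Gad1, Gad2, Slc32a1) summed to 4720 to 5327 CPM in SST WT libraries and to at most 135 CPM in CamK and Grik WT libraries. Of the somatostatin interneuron markers, Grin3a (149 to 192 CPM) and Elfn1 (212 to 278 CPM) varied little across the SST WT libraries, while Sst itself was at 1720, 159, 554 and 1557 CPM in replicates 1, 2, 3 and 5, against at most 10.6 CPM in CamK and Grik WT. Replicate 2 had the lowest level of this defining marker. Without it, 5 and 7 members were still called for CamK and Grik against SST. The 5 markers of other interneuron types (Pvalb, Vip, Cck, Lamp5, Htr3a) summed to 147 to 217 CPM in SST WT, below the 364 to 456 CPM of CamK WT and the 288 to 414 CPM of Grik WT. Pvalb made up most of the SST sum (114 to 172 CPM, against at most 1.54 CPM in CamK and Grik WT), and Cck most of the others (mean 365 CPM in CamK WT and 299 CPM in Grik WT, against 15.3 CPM in SST WT). The part of other interneurons in the SST values was not tested. 4 pyramidal markers (Slc17a7, Camk2a, Neurod6, Neurod2) summed to 5393 to 7840 CPM in CamK and Grik WT libraries and to 763 to 891 CPM in SST WT. CA1 markers were higher in CamK WT (625 to 905 CPM) than in Grik WT (44.9 to 62.2 CPM), and CA3 markers were higher in Grik WT (336 to 411 CPM) than in CamK WT (76.3 to 90.3 CPM). CA2 markers summed to 190 to 248 CPM in CamK WT and 115 to 140 CPM in Grik WT. Rgs14 made up most of both sums (175 to 241 CPM in CamK WT, 80.5 to 94.9 CPM in Grik WT). Amigo2 went the other way, at 2.99 to 4.97 CPM in CamK WT and 26.5 to 39.8 CPM in Grik WT, and Pcp4 ranges overlapped. The CA2 sum therefore does not show which of these populations held more CA2 RNA. Dentate gyrus markers summed to 97.9 to 259 CPM in CamK WT and 140 to 150 CPM in Grik WT. The part of such cells in the CamK and Grik values was not tested. The summed level of 23 non-neuronal markers was 166 to 261 CPM in CamK WT, against 788 to 1033 in Grik WT and 387 to 845 for SST WT, and none of the 23 was at 0.

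The members are long genes on 8 chromosomes (GENCODE M21, GRCm38). Spans ran from 59.5 kb for Cacna1h (chr17:25374285-25433783, minus strand) to 609.2 kb for Cacna1c (chr6:118587240-119196418, minus strand). Exons of Cacna1a share 435 bases with the antisense gene Gm16183, those of Cacna1d share 589 bases with Chdh and those of Cacna1h share 158 bases with Tpsg1, in each case on the opposite strand. The strand setting of the counting is not given in the sources used here. Unless the counting used the strand, reads in those bases cannot be told apart between the partners. Promoters from RefSeq (GRCm38.p6) matched 5 members with 8 entries. For Cacna1b and Cacna1i the RefSeq start coincides with the 5′ end of the GENCODE gene, and their 250 upstream bases are printed here to show the start regions of the member with the lowest spread and of a member that differed between all 3 populations. Capitals mark GC boxes, searched as GGGCGG on both strands (CCGCCC on the other) with overlapping matches allowed.
Cacna1b, chr2:24763153-24763402, minus strand: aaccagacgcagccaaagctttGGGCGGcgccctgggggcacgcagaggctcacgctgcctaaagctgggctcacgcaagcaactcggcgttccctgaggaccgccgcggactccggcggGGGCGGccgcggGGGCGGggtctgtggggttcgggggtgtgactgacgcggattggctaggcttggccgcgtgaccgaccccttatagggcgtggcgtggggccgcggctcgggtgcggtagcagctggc
Cacna1i, chr15:80286988-80287237, plus strand: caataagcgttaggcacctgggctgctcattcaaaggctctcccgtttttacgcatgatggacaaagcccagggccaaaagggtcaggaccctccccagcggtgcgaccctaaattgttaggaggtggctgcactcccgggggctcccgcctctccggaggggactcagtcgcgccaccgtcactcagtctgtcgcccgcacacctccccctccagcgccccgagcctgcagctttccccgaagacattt
The Cacna1b window was 72% G and C and held 3 GC boxes. The Cacna1i window was 62.4% G and C and held 0. Over all 32841 RefSeq mouse promoters of the same length the median was 52.4% G and C, and 32.7% held at least 1 GC box.

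Across the 3 WT populations, the R-type gene Cacna1e and the T-type gene Cacna1h were low in SST, the L-type gene Cacna1c was high in Grik, and the T-type gene Cacna1g was low in Grik. The N-type gene Cacna1b and the L-type gene Cacna1d varied least between populations. Counting error was small: reads per library ranged from 767 (Cacna1g, Grik cKO replicate 1, a counting error of 3.61%) to 25737 (Cacna1e, Grik WT replicate 3). Each population enters 2 of the 3 comparisons between WT populations, so these comparisons are not independent of each other.

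**Figure D1:**
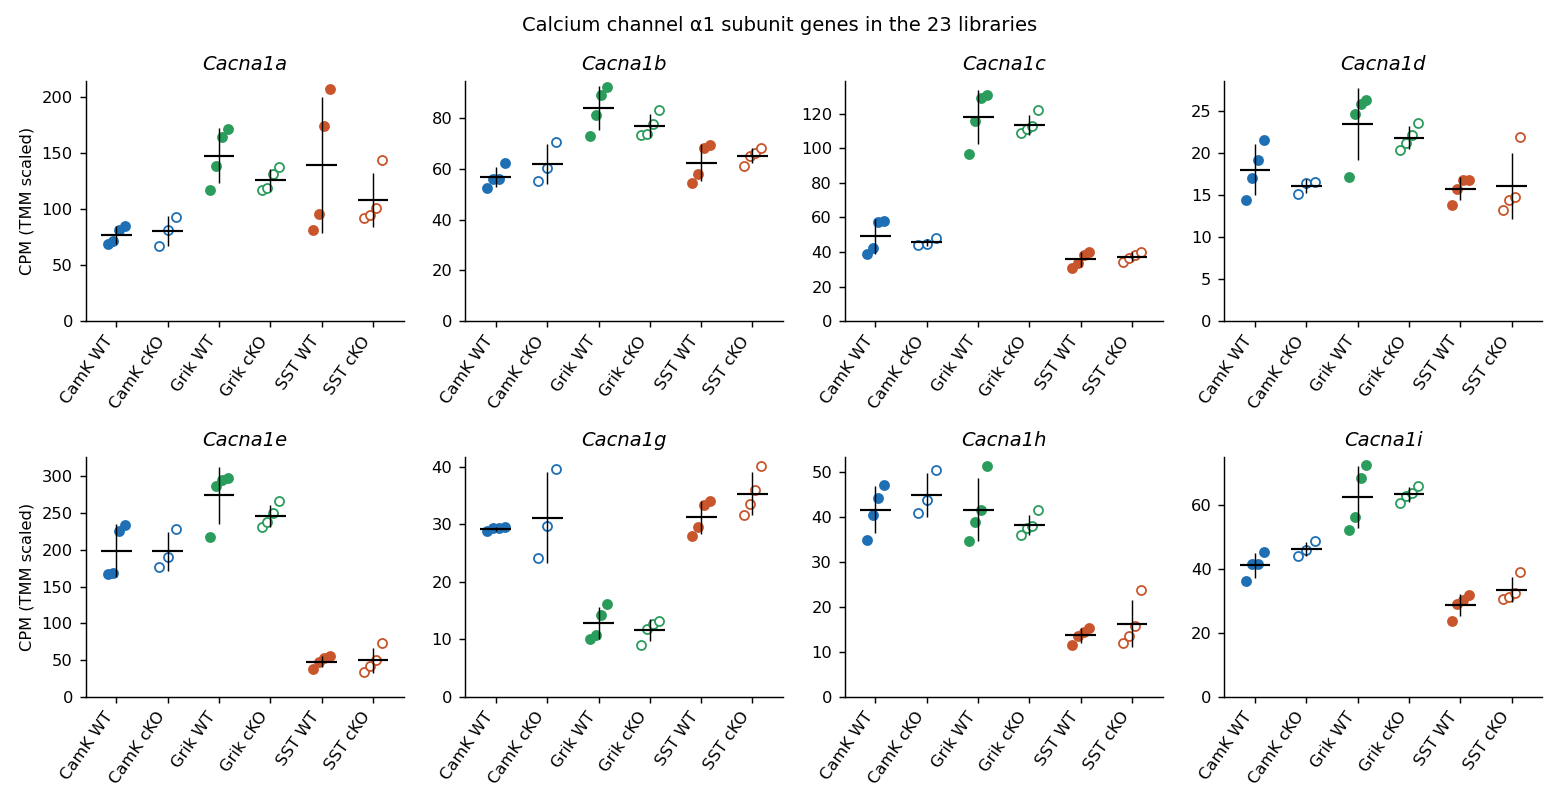
Levels of the 8 α1 subunit genes in the 23 libraries, in CPM with TMM scaling, by population and genotype; each point is 1 library (filled for WT, open for libraries labelled cKO), long bars are group means and vertical lines are 1 SD. Each panel has its own axis from 0. Cacna1e and Cacna1h sit low in SST, Cacna1c sits high and Cacna1g low in Grik, and filled and open points of a population overlap in every panel.

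Among the CaV2 genes, Cacna1e had the largest difference between populations of any member. Its CPM was 234, 226, 168 and 167 in CamK WT replicates 2 to 5, and 295, 298, 287 and 217 in Grik WT replicates 3 to 6. In SST WT replicates 1, 2, 3 and 5 it was 37.5, 55.1, 46.8 and 52.1. Every SST WT library was below every CamK WT and Grik WT library, while the CamK and Grik ranges overlapped. Cacna1e was 5.73-fold higher in Grik than in SST (log2 fold change 2.52, SE 0.19, edgeR adjusted p = 3.08e-10) and 4.15-fold higher in CamK than in SST (2.05, SE 0.19, adjusted p = 6.33e-09). It was lower in CamK than in Grik, at -0.46 on the log2 scale (SE 0.18, edgeR adjusted p = 0.0460). That call was lost in 6 of 15 alternatives, among them without CamK WT replicate 4 or 5 or Grik WT replicate 3, 4 or 5 (-0.39 to -0.44), and its sign turned with the mean log2 level of the non-neuronal marker list as a covariate (0.30). The pyramidal markers in SST WT stood at 3.10 to 17.9% of their CamK or Grik WT levels, and Cacna1e in SST WT stood at 24.1% of its CamK WT level and 17.5% of its Grik WT level; the part of pyramidal RNA in the SST value was not tested.

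Cacna1a, the P/Q-type gene that is the main presynaptic channel of many central synapses, was lower in CamK than in the other populations. Its CPM was 81.5, 84.9, 68.6 and 71.5 in CamK WT replicates 2 to 5 and 138, 164, 171 and 117 in Grik WT replicates 3 to 6. The Grik libraries were all above the CamK libraries, and CamK against Grik gave -0.95 on the log2 scale (SE 0.23, edgeR adjusted p = 0.00242). With the non-neuronal covariate that call was lost (-0.78, edgeR adjusted p = 0.203). In SST WT, replicates 1 and 2 had 174 and 207 CPM and replicates 3 and 5 had 95.5 and 81.5, a wider spread than in either other WT population. The mean was 140 ± 60.9 CPM (SD, n = 4). CamK was below SST by -0.87 on the log2 scale (SE 0.23, edgeR adjusted p = 0.00289), although the ranges overlapped. The same covariate ended this call (-0.69, edgeR adjusted p = 0.242), and without SST WT replicate 2 it was -0.61 (adjusted p = 0.0190). Grik and SST did not differ beyond this spread, at 0.079 with a 95% interval of -0.40 to 0.56 on the log2 scale (adjusted p = 0.792 in edgeR), and leaving out SST WT replicate 3 or 5 turned the sign, to -0.066 or -0.11. The estimated biological coefficient of variation of Cacna1a was 22.3%, against 9.50 to 18.0% for the other members and a median of 14.5% over all genes tested.

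Cacna1b, the N-type gene, was higher in Grik WT than in the other populations by small factors. Its CPM was 56.2, 62.4, 52.6 and 56.2 in CamK WT replicates 2 to 5, and 81.2, 89.4, 92.4 and 73.0 in Grik WT replicates 3 to 6. In SST WT replicates 1, 2, 3 and 5 it was 54.5, 68.4, 69.4 and 58.0. All Grik libraries lay above all others, and the CamK and SST libraries overlapped. The Grik level was 1.48-fold that of CamK (log2 fold change for CamK against Grik -0.56, SE 0.090, edgeR adjusted p = 1.52e-05) and 1.34-fold that of SST (0.42, SE 0.089, adjusted p = 0.000240). With the non-neuronal covariate the call against CamK was lost (-0.37, edgeR adjusted p = 0.0936). The CamK to SST difference was -0.14, with a 95% interval of -0.32 to 0.046 and an edgeR adjusted p = 0.186, and its sign turned with the covariate (0.080).

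Of the L-type pair, Cacna1c, the CaV1.2 pore and the more abundant of the L-type genes in these libraries on every length scale, marked the Grik population. Its CPM was 116, 129, 131 and 97.0 in Grik WT replicates 3 to 6. It was 57.8, 57.1, 38.6 and 42.5 in CamK WT replicates 2 to 5 and 33.6, 40.0, 38.2 and 31.0 in SST WT replicates 1, 2, 3 and 5. All CamK and SST libraries were below the lowest Grik library, and the CamK and SST ranges overlapped at their edge. Cacna1c was 2.42-fold higher in Grik than in CamK (log2 fold change for CamK against Grik -1.27, SE 0.11, edgeR adjusted p = 2.20e-09) and 3.32-fold higher than in SST (1.73, SE 0.12, adjusted p = 2.38e-12). It was 1.37-fold higher in CamK than in SST (log2 fold change 0.46, SE 0.11, edgeR adjusted p = 0.00116).

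Cacna1d, the CaV1.3 pore, which opens at lower voltages than Cacna1c channels, differed less. CamK WT libraries ran from 14.4 to 21.6 CPM, Grik WT libraries from 17.2 to 26.4 and SST WT libraries from 13.9 to 16.8. Grik exceeded SST without overlap (log2 fold change 0.58, SE 0.14, edgeR adjusted p = 0.00131). The lower level in CamK than in Grik (-0.38, SE 0.14, edgeR adjusted p = 0.0349) was lost in 6 of 15 alternatives, among them without CamK WT replicate 4 or 5 or Grik WT replicate 3, 4 or 5 (-0.29 to -0.36), and its sign turned with the non-neuronal covariate (0.032). CamK and SST did not differ past the threshold (0.20, 95% interval -0.10 to 0.49, edgeR adjusted p = 0.245). With the same covariate Cacna1d was called as higher in CamK than in SST (edgeR adjusted p = 0.0380).

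The T-type genes each had a different pattern. Cacna1g, the CaV3.1 pore, was low in Grik. Its CPM was 10.8, 14.3, 16.1 and 10.1 in Grik WT replicates 3 to 6. It was 29.6, 29.3, 29.3 and 28.8 in CamK WT replicates 2 to 5 and 34.0, 28.0, 33.3 and 29.5 in SST WT replicates 1, 2, 3 and 5. Every CamK and SST library was above every Grik library, and the CamK values were the closest together of any member in any group (SD 0.364, n = 4). Cacna1g was 2.28-fold higher in CamK than in Grik (log2 fold change 1.19, SE 0.15, edgeR adjusted p = 5.04e-07) and 2.43-fold higher in SST than in Grik (-1.28 for Grik against SST, SE 0.15, adjusted p = 5.92e-08). CamK against SST gave -0.092, with a 95% interval of -0.39 to 0.20 and an edgeR adjusted p = 0.599, and its sign turned with the non-neuronal covariate (0.28).

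Cacna1h, the CaV3.2 pore, was low in SST. Its CPM was 14.4, 15.4, 13.6 and 11.5 in SST WT replicates 1, 2, 3 and 5. It was 47.1, 44.3, 34.9 and 40.4 in CamK WT replicates 2 to 5, and 39.0, 41.6, 51.4 and 34.7 in Grik WT replicates 3 to 6. All SST libraries were below all others, while CamK and Grik overlapped throughout. The fold over SST was 3.04 in both CamK (log2 fold change 1.60, SE 0.16, edgeR adjusted p = 1.23e-08) and Grik (1.60, SE 0.16, adjusted p = 1.20e-08). Between CamK and Grik the log2 fold change was 0.000079, with a 95% interval of -0.33 to 0.33 (edgeR adjusted p = 1.0). With the non-neuronal covariate Cacna1h was called as higher in CamK than in Grik (edgeR adjusted p = 0.0341). Cacna1h in SST WT stood at 32.9% of its CamK WT level, and the pyramidal markers stood at 4.82 to 17.9% of theirs. The part of pyramidal RNA in the SST value was not tested.

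Cacna1i, the CaV3.3 pore, whose channels activate and inactivate slowly for the T-type, was ordered Grik above CamK above SST. Its CPM was 52.3, 68.4, 72.7 and 56.2 in Grik WT replicates 3 to 6, and 41.6, 45.3, 41.5 and 36.1 in CamK WT replicates 2 to 5. In SST WT replicates 1, 2, 3 and 5 it was 23.7, 29.1, 31.9 and 30.3. The 3 ranges did not overlap. Cacna1i was 1.52-fold higher in Grik than in CamK (log2 fold change for CamK against Grik -0.60, SE 0.10, edgeR adjusted p = 4.04e-05), 1.43-fold higher in CamK than in SST (0.52, SE 0.10, adjusted p = 0.000134) and 2.17-fold higher in Grik than in SST (1.12, SE 0.10, adjusted p = 1.22e-09). The Grik to CamK call was lost with the non-neuronal covariate (-0.35, edgeR adjusted p = 0.172), which moved the CamK to SST value to 0.80.

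**Figure D2:**
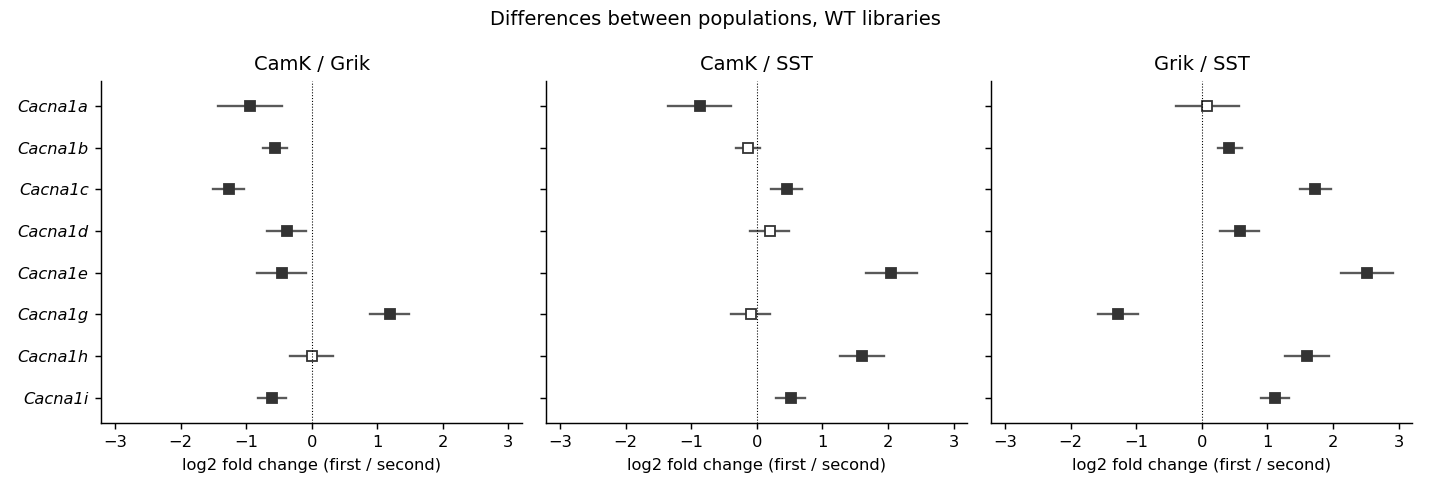
Log2 fold changes of the 8 genes between WT populations, 4 libraries each, from edgeR; squares are estimates, lines are 95% intervals, and filled squares passed an adjusted p of 0.05. Cacna1e reaches 2.52 for Grik over SST, and Cacna1g is the single filled square on the left side in that panel.

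Counted over the family, 7 of 8 members differed between CamK and Grik WT (1 higher in CamK, 6 lower), where 42.0% of all 18823 genes tested were called by edgeR, 20.9% higher and 21.1% lower. Between CamK and SST WT, 5 of 8 were called (4 higher in CamK, 1 lower), against 60.1% of all genes (29.5% higher, 30.5% lower). Between Grik and SST WT, 7 of 8 were called (6 higher in Grik, 1 lower), against 57.3% of all genes (28.1% higher, 29.2% lower). The share of members called between CamK and SST was close to that of genes in general. The median log2 fold change of the members was -0.51 for CamK against Grik, 0.33 for CamK against SST and 0.85 for Grik against SST, beside 0.0078, -0.021 and -0.026 over all genes. Library ranges did not overlap for 5 members between CamK and Grik, for 3 between CamK and SST and for 7 between Grik and SST, against 38.3%, 53.9% and 52.3% of all genes.

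The non-neuronal marker sum did not overlap between CamK and Grik WT libraries. It also did not overlap between CamK WT (166 to 261 CPM) and SST WT (387 to 845 CPM). On this measure CamK therefore differs from both other WT populations together with its genes. With the mean log2 level of the non-neuronal list as a covariate, 3 members instead of 7 were called between CamK and Grik WT. The share of all genes called with this covariate is not given here, so the lower count is not read as particular to the members. Cacna1c (lower in CamK) and Cacna1g (higher in CamK) were still called, and Cacna1h became higher in CamK (log2 fold change 0.66, edgeR adjusted p = 0.0341). Between CamK and SST WT the covariate also left a count of 5, but with another set: the Cacna1a call was lost (-0.69, edgeR adjusted p = 0.242) and Cacna1d was called (0.65, adjusted p = 0.0380). In that comparison it raised the log2 fold changes of Cacna1e to 2.91, Cacna1h to 2.33, Cacna1c to 0.85 and Cacna1i to 0.80, and in the libraries labelled cKO those of Cacna1e to 2.75, Cacna1h to 2.12, Cacna1c to 0.63 and Cacna1i to 0.71. Between Grik and SST WT 7 members were called. Whether non-neuronal RNA has a part in the CamK to Grik or the CamK to SST differences was not tested beyond this fit.

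Levels of different members were compared only per length, as CPM per kb of the union of a gene's annotated exons. In CamK WT the order from the highest was Cacna1e (7.88 ± 1.45 CPM per kb, SD, n = 4), Cacna1a (6.71 ± 0.681), Cacna1b (5.72 ± 0.412), Cacna1h (4.27 ± 0.543), Cacna1i (4.17 ± 0.387), Cacna1g (2.89 ± 0.0360), Cacna1c (2.31 ± 0.466) and Cacna1d (1.43 ± 0.242). Neighbours in that order overlapped in range for Cacna1e and Cacna1a, Cacna1a and Cacna1b, and Cacna1h and Cacna1i. In Grik WT the order was Cacna1a (12.9 ± 2.17), Cacna1e (10.9 ± 1.53), Cacna1b (8.45 ± 0.875), Cacna1i (6.33 ± 0.983), Cacna1c (5.59 ± 0.743), Cacna1h (4.27 ± 0.727), Cacna1d (1.87 ± 0.340) and Cacna1g (1.27 ± 0.280), again in CPM per kb, and of these neighbours only Cacna1h and Cacna1d had ranges that did not overlap. In SST WT it was Cacna1a (12.2 ± 5.33), Cacna1b (6.29 ± 0.751), Cacna1g (3.08 ± 0.284), Cacna1i (2.92 ± 0.359), Cacna1e (1.90 ± 0.305), Cacna1c (1.68 ± 0.196), Cacna1h (1.40 ± 0.171) and Cacna1d (1.25 ± 0.108). There the ranges separated Cacna1a from Cacna1b, Cacna1b from Cacna1g and Cacna1i from Cacna1e, and the other neighbours overlapped. The union of annotated exons is long for Cacna1e (25228 bases) and Cacna1c (21191 bases) and 9763 to 12621 bases for the others. Per kb of longest coding sequence Cacna1e therefore came first in Grik WT, at 40.2 ± 5.67, and led CamK WT without overlap, at 29.1 ± 5.37.

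As a share of the summed level per kb of exon union, the CaV2 genes made up 57.4 ± 0.559% for CamK WT, 62.5 ± 1.26% for Grik WT and 65.7 ± 5.75% for SST WT (SD, n = 4 each). The CaV1 share was 10.5 ± 0.857% for CamK WT, 14.4 ± 0.426% for Grik WT and 9.68 ± 1.24% for SST WT, and the CaV3 share was 32.1 ± 1.39%, 23 ± 1.67% and 24.7 ± 4.58%. Within CaV2, Cacna1e held 22.1 ± 1.79% of the family sum for CamK WT, 21.1 ± 1.71% for Grik WT and 6.33 ± 1.57% for SST WT, and Cacna1a held 19.0 ± 0.261%, 25 ± 0.858% and 38.5 ± 10.7%. Within CaV3, Cacna1g held 8.23 ± 0.850% for CamK WT, 2.44 ± 0.248% for Grik WT and 10.3 ± 2.06% for SST WT. These shares are descriptions with no test. Measured per kb of longest coding sequence, CaV2 made up 64.5%, 65.5% and 65.3% in the 3 WT groups, so the lower CaV2 share of CamK depends on the length used. On that scale Cacna1e held 39.0 ± 2.22%, 36.1 ± 2.21% and 13.2 ± 3.05% of the sum for CamK, Grik and SST WT, over 1.5 times its shares per kb of exon union. Cacna1a held 14.5 ± 0.531%, 18.6 ± 0.860% and 35.2 ± 10.3%, and Cacna1g 5.58 ± 0.698%, 1.60 ± 0.188% and 8.27 ± 1.60%.

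**Figure D3:**
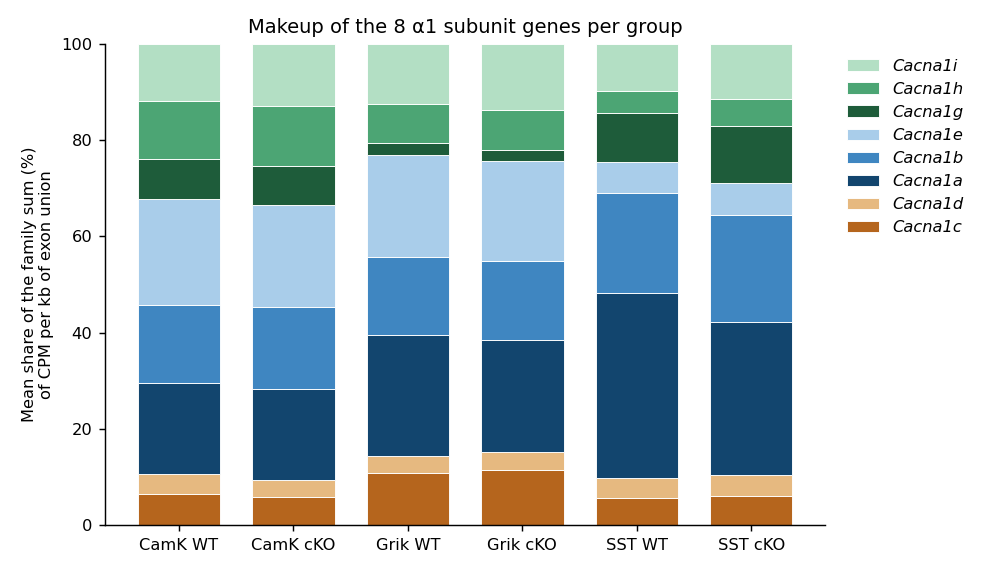
Mean share of each gene in the summed CPM per kb of exon union of the 8 genes, in percent, for the 6 groups (3 libraries in CamK cKO, 4 in each other group). Orange tones are CaV1, blue tones CaV2 and green tones CaV3; the Cacna1e share is 22.1% in CamK WT and 6.33% in SST WT, and the Cacna1g share is 2.44% in Grik WT.

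The libraries labelled cKO gave a second set of population differences. Between CamK and Grik, 6 of 8 members were called by edgeR (1 higher, 5 lower), against 35.7% of all genes (17.4% higher, 18.3% lower). Cacna1c was again lower in CamK (log2 fold change -1.32, SE 0.13, edgeR adjusted p = 7.56e-09) and Cacna1g higher (1.42, SE 0.16, adjusted p = 1.06e-07), and both calls held in all 14 alternatives. Cacna1a (-0.65), Cacna1b (-0.31), Cacna1d (-0.44) and Cacna1i (-0.45) were also lower in CamK, with edgeR adjusted p from 0.00244 to 0.0495. The Cacna1a call was lost in 11 of 14 alternatives, including without any 1 of the 7 libraries (-0.53 to -0.77). The Cacna1d call was lost in 7, including without CamK cKO replicate 4, 5 or 6 or Grik cKO replicate 3 or 4 (-0.39 to -0.46), the Cacna1b call in 5, including without CamK cKO replicate 4 or 6 or Grik cKO replicate 4 (-0.24 to -0.30), and the Cacna1i call in 1. Only 3 members were called with the non-neuronal covariate or without CamK cKO replicate 4 or 6 or Grik cKO replicate 4. These are counts, and the 3 members need not be the same in each fit. The share of all genes called in these fits is not given here. The non-neuronal sum was 258 to 337 CPM in CamK cKO and 871 to 1199 CPM in Grik cKO.

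Between CamK and SST libraries labelled cKO, 4 of 8 members were called, all higher in CamK, against 56.4% of all genes in either direction and 26.9% higher. Cacna1e was 4.0-fold higher (log2 fold change 2.0, SE 0.20, edgeR adjusted p = 2.34e-08), Cacna1h 2.76-fold (1.47, SE 0.17, adjusted p = 1.35e-07) and Cacna1i 1.39-fold (0.47, SE 0.11, adjusted p = 0.000822). Cacna1c was higher by 0.29 (SE 0.12, edgeR adjusted p = 0.0485), a call lost in 9 of 15 alternatives, including without any 1 CamK cKO library or SST cKO replicate 3, 4 or 5 (0.25 to 0.31). Between Grik and SST, 7 of 8 were called (6 higher in Grik, 1 lower), against 57.9% of all genes (27.9% higher, 30.0% lower). The largest was Cacna1e at 2.31 (SE 0.19, edgeR adjusted p = 1.06e-09), followed by Cacna1c at 1.61 (SE 0.12, adjusted p = 9.22e-12) and Cacna1g at -1.60 (SE 0.15, adjusted p = 1.53e-09). Cacna1h was higher in Grik by 1.23, Cacna1i by 0.92, Cacna1d by 0.44 and Cacna1b by 0.24, with edgeR adjusted p from 3.22e-08 to 0.0240, and the Cacna1b call was lost without Grik cKO replicate 4 (0.22) or SST cKO replicate 5 (0.21).

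Libraries labelled cKO for SLM2 were compared with WT in each population. In Grik, whole-gene Khdrbs3 counts were higher in the libraries labelled cKO, so the Grik values compare labels and are not shown to compare SLM2 loss with WT. In CamK and SST, mean Khdrbs3 was lower in cKO but far from absent, at 278 against 373 CPM and 93.8 against 130 CPM. In CamK, edgeR called 0 genes as lower in cKO, so the Khdrbs3 difference was not called there. How far SLM2 was lost was not tested in any population. In none of the 3 populations did a member pass the threshold. By edgeR, 0 of 8 members were called in CamK, 0 of 8 in Grik and 0 of 8 in SST, where 0.0106%, 0.0106% and 0.0106% of all genes were called. DESeq2 and limma-voom also called 0 members in each population. At an unadjusted p under 0.05 edgeR had 0 members in CamK, 0 in Grik and 1 in SST, against 7.05%, 4.88% and 5.85% of all genes. WT and cKO ranges overlapped for every member in every population, while they did not overlap for 6.75%, 4.59% and 2.70% of all genes.

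In SST, Cacna1i was the member with an unadjusted p under 0.05. Its CPM was 23.7, 29.1, 31.9 and 30.3 in WT replicates 1, 2, 3 and 5, and 30.7, 32.6, 31.3 and 39.2 in cKO replicates 3, 4, 5 and 7. The cKO group reached higher, mainly through replicate 7, and 1 WT library lay within the cKO range. The log2 fold change was 0.22 (95% interval 0.0041 to 0.43, edgeR adjusted p = 0.833). Non-neuronal markers summed to 1240 CPM in SST cKO replicate 7 and to 1105 CPM in replicate 5, above the 845 CPM of the highest SST WT library; their part in the Cacna1i value was not tested.

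Cacna1a had the largest difference in SST, at -0.37 (95% interval -0.85 to 0.11, edgeR adjusted p = 0.842). Its CPM in cKO replicates 3, 4, 5 and 7 was 144, 94.7, 101 and 92.3, against 174, 207, 95.5 and 81.5 in WT replicates 1, 2, 3 and 5. In both genotypes the libraries fell into high values (WT replicates 1 and 2, cKO replicate 3) and low values, and the low values of WT and cKO overlapped. SST WT replicate 1 and cKO replicate 3 were also the most deeply sequenced libraries and have column names of another form (WT1 and KO3) than the rest, which is no batch label. WT replicate 2, with 207 CPM, shares neither trait, and it had the lowest Sst level of the SST libraries (159 CPM). Without it the difference was -0.14 (edgeR adjusted p = 0.939). The part of depth or of Sst level in the Cacna1a values was not tested.

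In CamK the member with the lowest p was Cacna1i, with 41.6, 45.3, 41.5 and 36.1 CPM in WT replicates 2 to 5 and 46.1, 48.7 and 44.1 in cKO replicates 4 to 6. The log2 fold change was 0.17 (95% interval -0.057 to 0.40, edgeR adjusted p = 0.785). In Grik it was Cacna1b, with 81.2, 89.4, 92.4 and 73.0 CPM in WT replicates 3 to 6 and 73.6, 77.9, 73.7 and 83.2 in cKO replicates 1 to 4, a log2 fold change of -0.12 (95% interval -0.31 to 0.061, edgeR adjusted p = 0.992). The largest difference in Grik was that of Cacna1a at -0.23 (95% interval -0.70 to 0.25, edgeR adjusted p = 0.992). Over the 8 members the log2 fold changes ran from -0.17 to 0.17 in CamK, from -0.23 to 0.022 in Grik and from -0.37 to 0.25 in SST. The 0.25 was that of Cacna1h, at 13.5, 11.9, 15.8 and 23.8 CPM in SST cKO replicates 3, 4, 5 and 7. In SST WT it ran from 11.5 to 15.4 CPM, so the higher cKO mean rests mainly on replicate 7. The medians over the 8 members were 0.080, -0.12 and 0.064, beside medians of -0.0014, 0.0035 and 0.023 over all genes. The 95% intervals of all members lay between -0.49 and 0.58 in CamK, -0.70 and 0.25 in Grik, and -0.85 and 0.58 in SST. Single members had narrower intervals, such as -0.12 to 0.25 for Cacna1b in SST and -0.19 to 0.23 for Cacna1i in Grik.

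**Figure D4:**
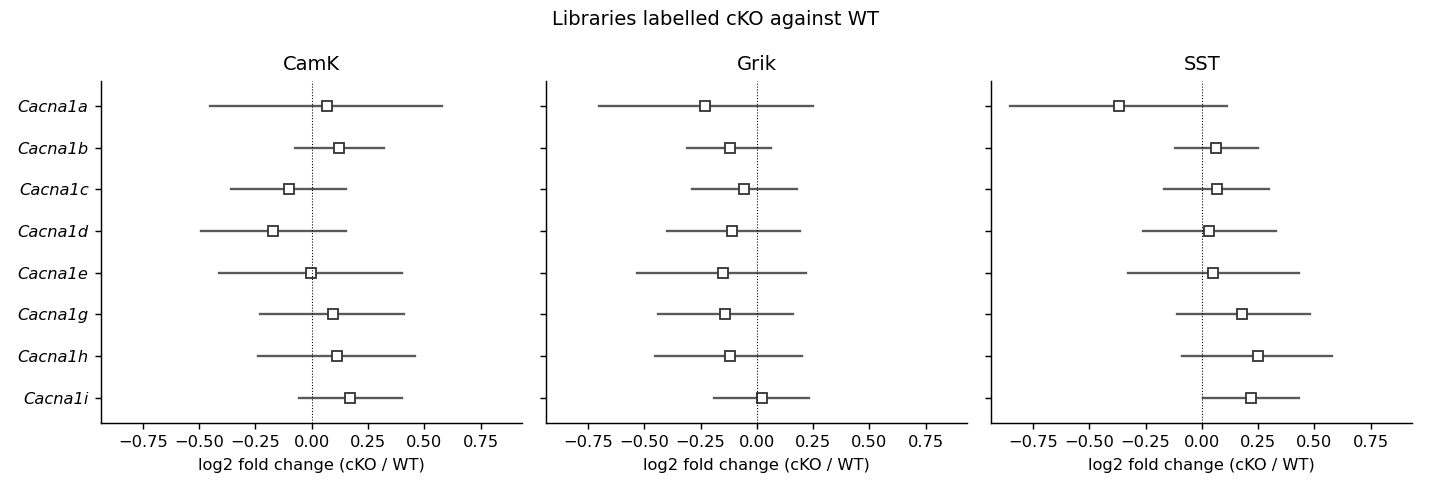
Log2 fold changes of the 8 genes in libraries labelled cKO against WT, by population, from edgeR; squares are estimates, lines are 95% intervals, and open squares did not pass an adjusted p of 0.05. All squares are open, from -0.37 (Cacna1a in SST) to 0.25 (Cacna1h in SST). For Cacna1h in SST, cKO replicate 7 had 23.8 CPM and the other cKO libraries 11.9 to 15.8 CPM.

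Tests of whether the genotype effect differed between populations called 0 of 8 members for CamK against Grik, 0 of 8 for CamK against SST and 0 of 8 for Grik against SST, where edgeR called 0.00531%, 0% and 0.0106% of all genes. With an unadjusted p under 0.05 there were 0 members in each, beside 6.50%, 7.85% and 3.86% of all genes, and DESeq2 and limma-voom called 0 members in each. The lowest adjusted p of a member in the edgeR fit was 0.790, 0.732 and 1.0.

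The genes whose pattern over the 23 libraries was most like each member's were listed for the 5 members with an absolute log2 fold change of at least 1 between WT populations. Likeness was the root mean square difference of log2 CPM after centring each gene, among 12964 candidates. For Cacna1e these were Nfib (0.19), Fstl4 (0.20) and Psd3 (0.21). For Cacna1c they were Erc2 (0.19), Mpp3 (0.19) and Cpeb1 (0.21), and for Cacna1g they were March3 (0.20), Epha10 (0.21) and Il17d (0.23). Sidt1, Gria2 and Map7 (0.20 each) were nearest to Cacna1h, and Pcdh1 (0.13), D630045J12Rik (0.13) and Gabbr2 (0.14) to Cacna1i. Among the members themselves the nearest pair was Cacna1b and Cacna1d (0.21).

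The channels' partners were taken from a list of 31 genes, of which 29 passed the filter: the other α1 genes, the β, α2δ and γ subunits, RGK inhibitors, Stac adaptors, presynaptic tethers, calmodulins and anchors, and calcium-gated potassium channels. In WT, 8 were higher and 8 lower in CamK than in Grik by edgeR, which called 42.0% of all genes there. Against SST, 16 were higher and 10 lower in CamK (60.1% of all genes called), and 15 were higher and 9 lower in Grik (57.3% of all genes called). The list's medians were -0.00026, 0.62 and 0.49 in these comparisons, beside 0.0078, -0.021 and -0.026 over all genes. None of the 29 was called by edgeR in any genotype comparison, with 1 in CamK, 4 in Grik and 1 in SST at an unadjusted p under 0.05. Over all genes, 0.0106% were called in each population, and 7.05%, 4.88% and 5.85% had an unadjusted p under 0.05.

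The α2δ subunits, which traffic the channels to the membrane, split by population. Cacna2d1 was at 116 ± 12.2 CPM in the CamK WT group, 132 ± 9.13 for Grik and 13.6 ± 4.36 for SST (SD, n = 4 each). Cacna2d2 was at 91.3 ± 14.5 CPM in SST WT, 11.1 ± 4.87 in CamK WT and 2.0 ± 0.328 in Grik WT. The log2 fold change of Grik against SST was 3.28 for Cacna2d1 (edgeR adjusted p = 1.96e-09) and -5.51 for Cacna2d2 (adjusted p = 9.18e-12). Cacna2d3 (-1.05) and Cacna2d4 (-2.58) were lower in CamK than in SST, and Cacna2d4 was lower in Grik than in SST (-1.61). Outside the rule for named partners, and chosen after their values were seen, Cacna2d3 was also lower in Grik than in SST (-0.96, edgeR adjusted p = 7.50e-10) and Cacna2d4 lower in CamK than in Grik (-0.97, adjusted p = 0.0264), with overlapping ranges and means of 0.441 and 0.868 CPM. Cacna2d2 was also higher in CamK than in Grik, by 2.47 (edgeR adjusted p = 1.03e-06).

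Other partners named by the same rule differed as follows. Stac, an adaptor of L-type channels, was at 17.1 ± 3.46 CPM in the CamK WT group, 1.60 ± 0.194 for Grik and 3.67 ± 0.567 for SST. Rem2, an RGK protein that inhibits these channels, was at 63.6 ± 2.30 CPM in Grik WT, 24.7 ± 4.07 in CamK WT and 7.67 ± 0.641 in SST WT (Grik against SST 3.05, edgeR adjusted p = 4.92e-18). The active zone scaffold Rims1 (-0.81) and the calmodulin-like Cabp1 (-0.62) were lower in CamK than in Grik, and the anchor Akap5 was higher (1.05). Rimbp2, which links release sites to channels, was higher in Grik than in SST (1.50), Cacnb4, a β subunit, was lower (-1.26), and the calcium-gated potassium channel Kcnn2 was higher in CamK than in SST (1.85).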

How the data were processed

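Polyadenylated RNA of 23 mouse hippocampal libraries was analysed from the whole-number read counts per Ensembl gene that the authors deposited. Trimmomatic, STAR and GRCm38 are named in the submitters' processing notes; versions, annotation release and strand setting are not given in the sources used here. Of 45706 IDs, 45143 matched GENCODE M21 and 563 did not. Rows that name no gene (12.4 to 18.4% of all counted reads) were left out. Genes were kept by filterByExpr (18823), scaled with TMM factors and fitted together over the 6 groups with glmQLFit (robust) and glmQLFTest in edgeR 4.0.16 under R 4.3.3, adjusted by Benjamini-Hochberg over all genes tested at a threshold of 0.05. CPM, per-length levels and 95% intervals were computed here. Replicate pairs differed by more than sampling noise (chi-square per degree of freedom 8.27 to 198 over 33 pairs), so each library counts once. Alternatives were relative log expression factors, no filter, DESeq2 1.42.0, limma-voom (limma 3.58.1), a fit of only the groups compared, other gene lengths, a non-neuronal covariate, blocking on replicate number and leaving out each library. Leaving out the 2 deepest libraries was added after seeing the data.

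The members, lists and tests were chosen with earlier results of these data known. Partners were named by rule: in each WT comparison, up to 3 called genes in each direction by fold change with a mean of at least 1 CPM over both groups, and every partner called between genotypes (there was none). The edgeR fit was also run on counts simulated from its own estimates of spread. That run checks the code and does not bear on the results above.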

Additional observations from a re-analysis of the deposited data

Results flagged for a closer look

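Of 40 groups of 4 libraries tested over the 8 genes, 2 held a library far from the others by Dixon's ratio, where chance gives about 2. SST cKO replicate 3 had 144 CPM of Cacna1a, against 92.3 to 101 in the other SST cKO libraries, a gap of 0.832 of the group's range. Grik WT replicate 6 had 217 CPM of Cacna1e, against 287 to 298 in the other Grik WT libraries, a gap of 0.864 of the range.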

How the results depend on the processing

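Counts of members called between CamK and SST WT (5) and between Grik and SST WT (7) were the same in every alternative run, and 0 members were called in every alternative of the genotype comparisons and their differences. With the non-neuronal covariate, 3 members were called between CamK and Grik in WT and 3 in cKO, with no share of all genes given for these fits. Leaving out 1 library gave 3 to 5 members between CamK and Grik in cKO. For Cacna1h between CamK and Grik WT, whose main value was 0.000079, the sign turned with relative log expression factors (-0.0072), DESeq2 (-0.0072), only the groups compared (-0.00031) and the replicate block (-0.11), and leaving out 1 library gave -0.080 to 0.12. The covariate turned Cacna1d (0.032) and Cacna1e (0.30) between CamK and Grik WT, and Cacna1b (0.080) and Cacna1g (0.28) between CamK and SST WT, and Cacna1d became called there (0.65, edgeR adjusted p = 0.0380). Cacna1a between Grik and SST WT ranged from -0.11 to 0.33 when 1 library was left out. The covariate also ended the calls of Cacna1a (-0.78), Cacna1b (-0.37) and Cacna1i (-0.35) between CamK and Grik WT and of Cacna1a between CamK and SST WT (-0.69). Per kb of longest coding sequence, 5, 3 and 2 members kept their place in the order of levels in CamK, Grik and SST WT, and 5 did in Grik WT per kb of longest transcript. Where not shown by the construction, the cause was not tested. Replicate numbers shared by WT and cKO of a population gave few pairs, whose deviations correlated at -0.091 to 0.11. For CamK replicate 4 and SST replicate 5 the shared number gave the best match, and for the other pairs it did not. So few pairs cannot show whether the numbers pair the samples, and the main fit used no pairing. With the replicate block, 4 members were called between CamK and Grik in cKO, against 6 without it. Leaving out the 2 deepest libraries ended 1 member call, that of Cacna1c between CamK and SST cKO (0.28). With at least 767 reads per member and library, depth limited little; with 3 or 4 libraries a group, the spread between libraries set the intervals.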
